A study of Mus musculus with 2 samples.

Results

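The imprinted Dlk1-Meg3 domain of mouse chromosome 12 was described here through 6 genes chosen by name: Dlk1, Meg3, Rian, Mirg, Rtl1 and Dio3. They are 6 of the 55536 gene rows of the deposited tables, and each symbol matched 1 gene identifier. Together they hold 56 annotated transcripts, of which Rian has 20, Mirg 12, Meg3 11, Dlk1 10, Dio3 2 and Rtl1 1. In mm10 with GENCODE M21 the genes span chr12:109452823-110281097, a stretch of 828 kb that holds 118 gene rows.

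Total RNA of gastrocnemius, the large calf muscle, came from female mice of the hybrid strain B6CASTF1/J, a cross of 2 mouse subspecies, aged 36 days, and was sequenced. The study holds 1 group of 2 libraries, each from 300 ng of RNA with spike-in RNAs added, and no treatment, mutation or other genotype. The tissue samples carry their own numbers in the labels, but separate animals are not stated, and the spread between libraries may thus be partly technical. Every comparison is therefore between genes, between libraries or between ways of quantifying the same reads, and none carries a p-value. The depth over gene rows was 37491975 estimated counts for replicate 1 and 40461329 for replicate 2. Reads were not split by parental allele in these tables, so the parental origin of the RNA was not measured.

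In this domain the 2 parental chromosomes are used differently. Dlk1, Rtl1 and Dio3 are known as protein-coding genes of the paternal copy, while Meg3, Rian and Mirg are long non-coding RNAs of the maternal copy that lie in a row on 1 strand. A methylated control region between Dlk1 and Meg3 sets this pattern, and the long maternal RNAs carry many miRNAs and box C/D small nucleolar RNAs, mostly in their introns. In muscle the domain is best known from callipyge sheep, whose hindquarter muscles overgrow with raised Dlk1 and Rtl1.

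The maternal long RNAs dominated the domain, and 2 of the 3 paternal genes were close to absent. The level is given in TPM, which corrects for transcript length. Meg3 stood at 21.4 TPM in the replicate 1 library and 17.1 TPM in the replicate 2 library, and Rian at 19.3 and 16.1 TPM. Dlk1, the ligand-like membrane protein, stood at 3.34 and 1.41 TPM. Mirg, which hosts the later part of the distal miRNA cluster, stood at 1.78 and 1.25 TPM. Dio3, the deiodinase that inactivates thyroid hormone, stood at 0.10 and 0.05 TPM, and Rtl1, a retrotransposon-derived gene, was listed at 0 TPM in both libraries. With detection set at 1 TPM in both libraries, 4 of the 6 genes were detected, against 19.5% of all gene rows.

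The order of mean levels was Meg3 (19.2 ± 3.06 TPM; SD, n = 2), Rian (17.7 ± 2.28), Dlk1 (2.38 ± 1.36), Mirg (1.52 ± 0.375), Dio3 (0.075 ± 0.0354) and Rtl1. Meg3 and Rian overlapped, since the lower Meg3 library lay under the higher Rian library, and Dlk1 and Mirg overlapped in the same way. The steps from Rian down to Dlk1, from Mirg down to Dio3 and from Dio3 down to Rtl1 were each larger than the spread, although the last rests on a handful of reads. Within each library Meg3 exceeded Rian slightly, by 1.11 times in replicate 1 and 1.06 times in replicate 2. The reads-based quantification reversed that pair, with Meg3 at 0.888 and 0.903 of Rian. Among all gene rows ranked by mean TPM, Meg3 was at position 2534, Rian at 2723, Dlk1 at 9000 and Mirg at 10256. Of the 5854 rows annotated as lincRNA, 1.91% passed the detection level in both libraries, and Meg3 ranked 15 and Mirg 92 among them.

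**Figure D1:**
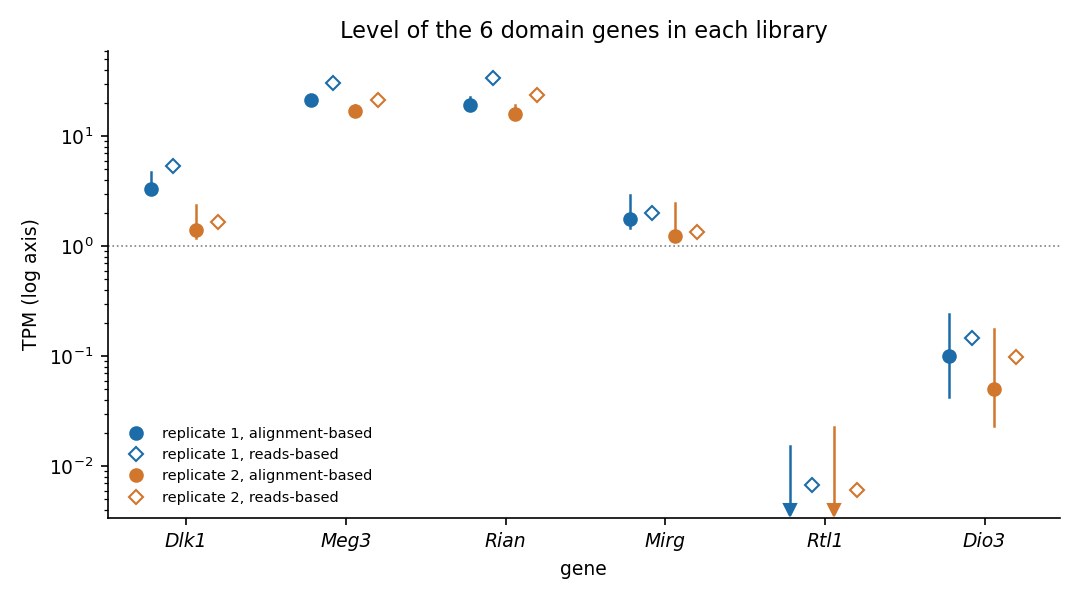
TPM (log axis) of the 6 genes in each library, from the alignment-based gene table (filled circles, with the authors' deposited lower and upper TPM bounds as lines) and from the reads-based transcript table (open diamonds). Triangles mark Rtl1, listed at 0 TPM, and the dotted line is the 1 TPM detection level. Meg3 and Rian sit together at 16.1 to 21.4 TPM by alignment, Dlk1 and Mirg at 1.25 to 3.34, and Dio3 at 0.05 to 0.10.

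Meg3 (ENSMUSG00000021268.17, chr12:109541001-109571726, plus strand) is a long non-coding RNA that is retained in the nucleus. It took 1049 estimated counts in the replicate 1 library and 819.8 in that of replicate 2. The deposited posterior SD of the count, a score of how surely the reads were assigned, was 8.62 and 5.89 counts, a small part of the total. The annotation gives Meg3 more than 1 start, and RefSeq lists 2 start windows for it. They are shown because the transcripts that take most of the Meg3 reads begin at these places. Each run is RefSeq sequence of GRCm38.p6, plus strand, from 250 bases before to 50 after the start, and capitals mark 3 motifs described below.

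Meg3 first start, chr12:109540746-109541045: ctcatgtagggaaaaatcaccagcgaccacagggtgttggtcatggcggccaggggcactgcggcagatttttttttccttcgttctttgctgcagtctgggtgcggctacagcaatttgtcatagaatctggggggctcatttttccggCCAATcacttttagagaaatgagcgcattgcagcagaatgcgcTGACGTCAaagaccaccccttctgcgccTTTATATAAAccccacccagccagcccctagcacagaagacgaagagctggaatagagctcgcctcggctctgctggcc
Meg3 internal start, chr12:109545148-109545447: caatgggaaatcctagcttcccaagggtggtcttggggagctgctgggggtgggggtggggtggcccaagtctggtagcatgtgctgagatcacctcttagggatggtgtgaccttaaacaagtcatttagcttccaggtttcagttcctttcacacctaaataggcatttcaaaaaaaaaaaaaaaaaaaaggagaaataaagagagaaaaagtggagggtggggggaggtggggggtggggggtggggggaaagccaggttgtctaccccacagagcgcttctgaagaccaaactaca

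The window at the first Meg3 start has the letters of a classical promoter, and the internal one has none of the 3 motifs. Motifs were searched on both strands. A TATAAA lies 25 to 20 bases before the first start, and it overlaps the same letters read on the minus strand. TGACGTCA, the cAMP response element, lies 57 to 50 bases before that start and reads alike on both strands. CCAAT lies 100 to 96 bases before it. Of the 32851 RefSeq windows of this length, 13.6% hold TATAAA, 1.79% hold TGACGTCA and 37.4% hold CCAAT. The first window has 13 CpG pairs and the internal one 1, against a median of 7 over all windows. Windows were also held for Dlk1, Rian, Mirg and Dio3, none of which has TGACGTCA. The Dio3 window has TATAAA and CCAAT and holds 25 CpG pairs, the Rian window has no CpG at all, and the Mirg window lies over the miR-668 and miR-485 hairpins.

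Most Meg3 molecules, by TPM, were assigned to short transcripts, while the largest share of its reads went to 1 very long one. Transcripts starting within 10 bases of the first annotated start (Meg3-201, Meg3-205 and Meg3-207) held 459 of the Meg3 counts in replicate 1 and 304 in replicate 2. Meg3-205, of 1498 bases, led by TPM in the alignment-based table, with 25.6% of the gene in replicate 1 and 27.2% in replicate 2. The reads-based table agreed on that share (26.1% and 28.9%) but placed the 755-base Meg3-202 above it, at 26.6% and 31.9%. Meg3-203, Meg3-204 and Meg3-208 were split differently by the tables: Meg3-204 held 15.9% and 16.4% by alignment, and 0.386% and 0% in the reads-based table.

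Meg3-209 begins at the internal start and is 14548 bases long, with the miR-770 hairpin inside its last exon. It took 386 counts in replicate 1 and 326 in replicate 2, or 36.8% and 39.8% of the Meg3 counts, and 39.7% and 41.4% in the reads-based table. After division by length it held only 4.09% and 4.10% of Meg3 TPM, so whether it leads depends on the unit. All 4 tables gave it the most counts of any Meg3 transcript. The 3 transcripts that splice across the miR-770 hairpin and carry it in an intron (Meg3-207, Meg3-208 and Meg3-211) held 308 and 168 counts. Reads over the long last exon cannot be told apart from unspliced Meg3 RNA in these tables.

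Meg3 was lower in the replicate 2 library, by 1.34-fold after TMM scaling (95% exact counting interval 1.22 to 1.47), and its transcripts did not all take part alike. Meg3-207, the 10-exon form from the first start to the end of the gene, had 226 counts against 94.7 in replicate 2, a 2.48-fold difference (1.95 to 3.19). Its deposited TPM bounds did not overlap, at 2.87 to 4.60 and 1.03 to 2.14. The reads-based table also had it lower, with 148 and 72.2 counts. Meg3-205, from the same start, had 234 and 209.7 counts, with bounds that overlapped, and Meg3-209 differed by 1.24-fold (1.06 to 1.44). Of the 20 transcripts of all 6 genes whose mean count was 10 or more, 4 were over 2-fold apart (Meg3-207, Meg3-208, Dlk1-203 and Dlk1-205), against 23.6% of all transcript rows at that count, so the share is near the background. Meg3-208 was the member of the 4 that was higher in replicate 2, with 0 and 25.2 counts by alignment, but 50.3 and 30.8 in the reads-based table.

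**Figure D2:**
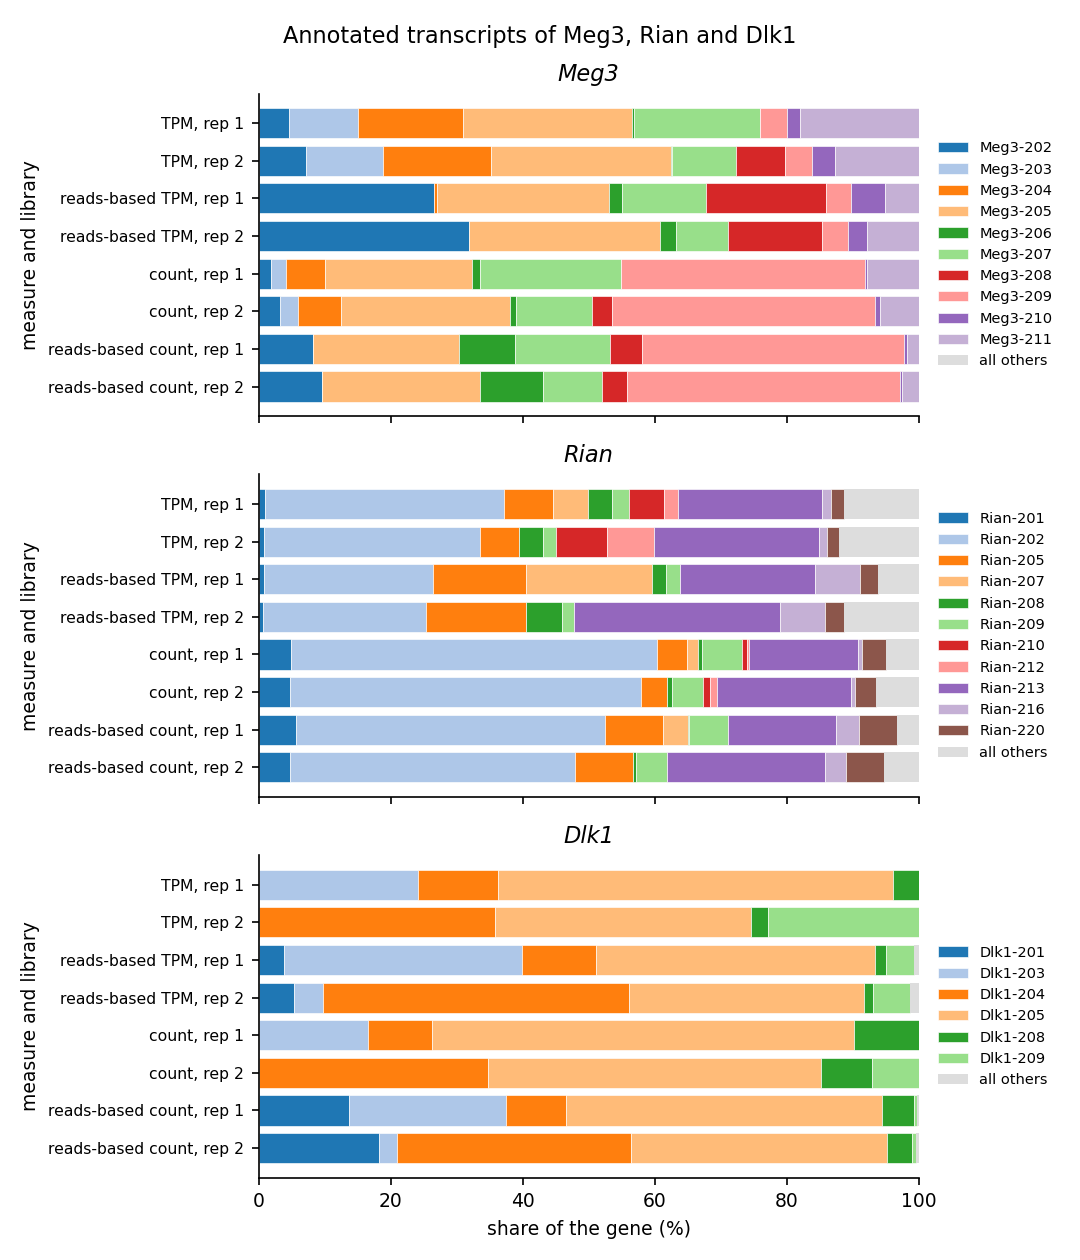
Share of each gene (%) held by its annotated transcripts, by TPM and by count, in the alignment-based and the reads-based tables of each library (rep, replicate). Transcripts at 5% or more of TPM, or of counts, in any table are coloured and the rest are grey. Meg3-209 widens from 4.09% of TPM to 36.8% of counts in replicate 1, Rian-202 leads Rian by count, and the Dlk1 forms change places between libraries.

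Rian (ENSMUSG00000097451.10, chr12:109603940-109661716, plus strand) hosts a part of the box C/D small nucleolar RNAs of the domain. The rows of the others lie past its annotated end. It took 870 counts in replicate 1 and 717 in replicate 2, with a 1.27-fold difference (95% exact counting interval 1.15 to 1.40). The RNA was not spread evenly along the gene's 20 transcripts. The 13 transcripts that begin beyond the midpoint of the gene held 752 and 623 counts, or 86.4% and 86.9%, and 75.9% and 70.8% of Rian TPM. The 2 that begin and end before the midpoint, Rian-206 and Rian-210, together held 11.0 and 10.3 counts, and 0 in the reads-based table. They are short, at 329 and 295 bases, and by alignment held 8.91% and 9.75% of Rian TPM. The other 5 cross the midpoint and held 107 and 83.4 counts, or 15.2% and 19.5% of TPM. RefSeq's start for Rian lies at the far 5′ end, where few of these reads were assigned.

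Rian-202, of 2355 bases and 11 exons, led in the alignment-based table with 482 and 382 counts, or 36.3% and 32.7% of Rian TPM. It also took the most counts in the reads-based table, with 433 and 324.5. Rian-213, with 8 exons, came next by TPM at 21.8% and 25.0%. Rian-213 did not differ between the libraries beyond counting error (143.7 and 145 counts; 1.04-fold, 0.817 to 1.31), while Rian-202 was 1.32-fold lower in replicate 2 (1.15 to 1.51). In the reads-based table of replicate 2, Rian-213 led by TPM at 31.3%. Rian-205 held 14.1% and 15.1% there, against 7.46% and 5.93% by alignment.

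Mirg (ENSMUSG00000097391.8, chr12:109729764-109749460, plus strand) begins within the distal miRNA cluster and runs through its later part. It took 67 counts in replicate 1 and 56 in replicate 2, with a 1.25-fold difference whose counting interval spanned no change (0.863 to 1.81). Spread over 12 transcripts, these reads did not settle on a leading form. Mirg-206 led by TPM in replicate 1 at 25.5% and had 0 counts in replicate 2, where Mirg-201 led at 20.0%. By count Mirg-201 led in both libraries of the alignment-based table, with 16.3 and 14.5 counts, and Mirg-208 led in the reads-based one, with 23.8 and 27.1.

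Past Mirg, no gene row of the domain reached 1 TPM. The summed counts of Meg3, Rian and Mirg were 1986 in replicate 1 and 1593 in replicate 2, and the replicate 2 library was at 0.768 of replicate 1 after scaling (0.719 to 0.821). Rows of the same strand between them were low: Gm26945, inside Rian, had 7 and 11 counts, Gm37899 had 39 and 31, and B830012L14Rik had 11 and 23, all under 0.2 TPM. Of the 118 rows, 8 reached 10 counts in a library. From Mirg to Dio3os, a non-coding RNA that begins next to Dio3 on the other strand, no row had more than 2 counts in the alignment-based table. In the reads-based table Gm34667, between them, had 6 and 3 counts. Dio3os itself had 12 and 6 counts by alignment.

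**Figure D3:**
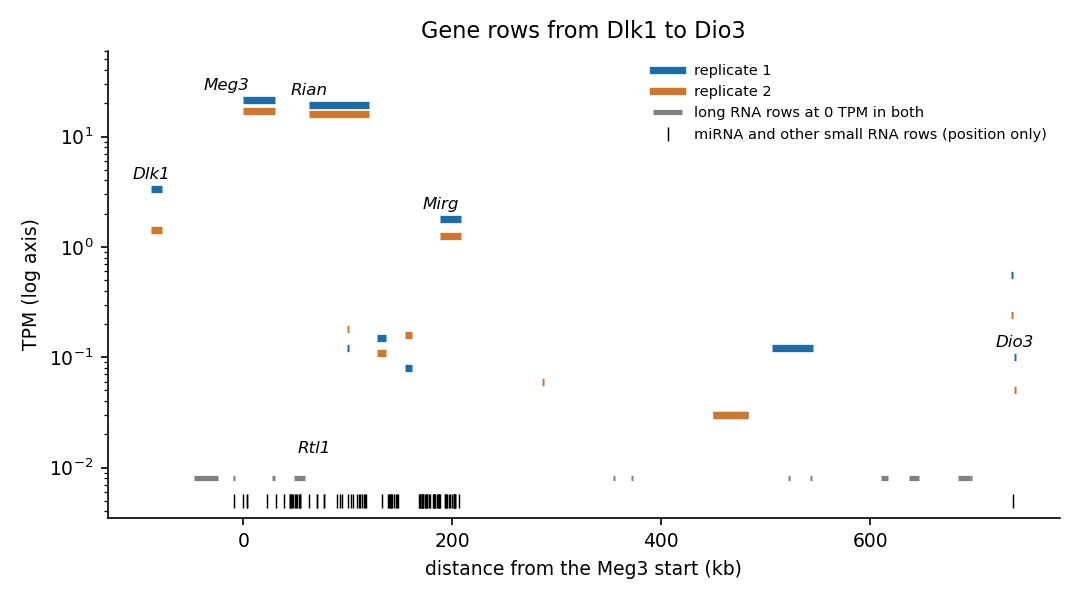
TPM (log axis) of the gene rows between Dlk1 and Dio3 against distance from the Meg3 start (kb). Bars span each gene in each library, grey bars mark long RNA rows at 0 TPM in both libraries, and ticks mark small RNA rows by position only. Meg3 and Rian stand above all other rows, and past Mirg no row exceeds 1 TPM.

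The small RNAs of the domain were not read by these tables. RefSeq places 58 miRNA hairpins and 114 mature miRNAs between Dlk1 and Dio3, all 58 with a gene row of their own. Of the 67 rows typed miRNA here, 2 had any count (Mir433 and Mir1188, with 1 count each in replicate 2), or 2.99%, against 2.40% of the 2207 miRNA rows of the genome. All 23 small nucleolar RNA rows had 0 counts in both libraries. The tables gave an effective length of 0 to 59 of the 67 miRNA rows and to all 23 small nucleolar RNA rows in replicate 1. The 8 miRNA rows with an effective length above 0 were those of 112 bases or longer. The zeros of the other miRNA rows and of the small nucleolar RNA rows thus set no upper limit. They do not show that the small RNAs were absent. Over the whole genome, these 23 included, 120 of 1507 small nucleolar RNA rows, or 7.96%, had a count.

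Most mature miRNAs of the domain share their exact seed with no other miRNA of the domain. Near-identical seeds were not grouped, so this does not measure how related the miRNAs are. The 114 mature sequences carry 104 seeds, and 10 seeds are shared by 2 of them each. As examples, 3 of the pairs that share a seed within the distal cluster are shown. Their hairpins lie before the start of the Mirg row, so the Mirg counts do not cover them. Capitals mark the seed, bases 2 to 8.

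miR-379-5p: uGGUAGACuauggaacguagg
miR-1193-5p: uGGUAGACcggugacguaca
miR-379-3p: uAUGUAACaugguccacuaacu
miR-411-3p: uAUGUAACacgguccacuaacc
miR-1197-5p: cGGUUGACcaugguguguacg
miR-758-5p: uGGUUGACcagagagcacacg

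Rtl1 (ENSMUSG00000085925.3, chr12:109589193-109600330, minus strand) is a gag-pol-like gene derived from a retrotransposon. Replicate 1 gave it 0 counts, where up to 3 are allowed by counting error alone, and replicate 2 gave it 1 count. The reads-based table had 1 count in each library. The upper TPM bounds deposited by the authors were 0.0154 and 0.0229. Its single transcript has an exon of 6296 bases that holds the whole coding stretch of 5232 bases, and the opposite strand of that exon carries 6 miRNA genes. In the reference sequence their mature miRNAs are perfectly complementary to Rtl1 RNA. Of 13 mature miRNAs inside the exon, 11 are encoded on the opposite strand. The complement of each of the 11 was found in the Rtl1-201 sequence, within the coding stretch. Whether the match holds between the parental copies of these hybrid mice was not checked. The other 2 belong to miR-3071, on the Rtl1 strand. miR-127 and miR-136 are known to act on Rtl1, and the miR-431 and miR-433 sites are shown beside them. Capitals mark the seed in the miRNA and the bases that face it in the site, which is read 5′ to 3′ on Rtl1-201, from GENCODE M21.

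miR-127-3p: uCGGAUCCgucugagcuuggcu
its Rtl1 site: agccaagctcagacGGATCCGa
miR-136-5p: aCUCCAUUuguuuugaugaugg
its Rtl1 site: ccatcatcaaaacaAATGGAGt
miR-431-5p: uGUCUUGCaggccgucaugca
its Rtl1 site: tgcatgacggcctGCAAGACa
miR-433-3p: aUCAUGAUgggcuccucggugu
its Rtl1 site: acaccgaggagcccATCATGAt

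These 4 sites start at bases 2642, 199, 5072 and 3749 of the Rtl1 transcript, in the order shown. No row for the long antisense RNA of Rtl1 was analysed here, and without strand in the counting its reads could not be told apart from those of Rtl1. With 0 and 1 Rtl1 counts neither a level of Rtl1 nor an effect of the miRNAs on it could be measured.

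Dlk1 (ENSMUSG00000040856.17, chr12:109452823-109463336, plus strand) encodes a membrane protein with EGF-like repeats, related to Notch ligands, that marks fat cell precursors and developing muscle. It had 153 counts in replicate 1 (95% exact Poisson interval 130 to 179) and 56 in replicate 2 (42.3 to 72.7). The replicate 1 library was the higher, and the intervals did not overlap. The difference was 2.85-fold (95% exact counting interval 2.09 to 3.95), a log2 ratio of -1.50. Dlk1 was the single member over 2-fold apart of the 4 with a mean count of at least 10, against 7.76% of all 15007 genes at that count in either direction and 3.09% in its direction. Among 3421 genes within 2-fold of its mean count, 3.10% lay at least as far apart. The reads-based table had 159 and 58 counts. Here and for the marker lists below, fewer cells of a type and less RNA per cell cannot be told apart.

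The Dlk1 transcripts differ in whether a segment that encodes the stretch next to the membrane is kept. Forms with the full coding length of 1155 bases, all of them read as Dlk1-205 by alignment, took 97.8 counts in replicate 1 and 28.2 in replicate 2, with a 3.65-fold difference (2.38 to 5.78). The 6 forms with an intron inside that last coding exon had 55.2 and 27.8 counts, a 2.05-fold difference (1.28 to 3.36), and the intervals overlap. Full-length forms thus held 63.9% of Dlk1 counts in replicate 1 and 50.4% in replicate 2. In the reads-based table the shares were nearer, at 61.6% and 57.0%. Among the spliced forms, Dlk1-203 (coding length 936) had 25.3 counts in replicate 1 and 0 in replicate 2. Dlk1-204 (coding length 870) had 14.9 and 19.5. Both tables showed this exchange, but the deposited bounds of each spliced form overlapped between libraries (for Dlk1-203, 0.139 to 1.37 TPM against at most 0.451).

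Most markers of fat cells, red blood cells and Schwann cells were lower in replicate 2, as Dlk1 was, while those of fibroblasts and endothelium were within 2-fold. The tissue itself showed the fibre genes of its label, with Acta1, skeletal actin, at 26410 and 21414 TPM and Ckm, muscle creatine kinase, at 23121 and 16462 TPM. Of the 13 fat cell markers, all with a mean count of at least 10, 9 were over 2-fold lower in replicate 2 and 2 were over 2-fold higher (3.09% and 4.68% of all genes). Their median log2 ratio was -2.52, against 0.0046 over all genes. Adipoq, the fat cell hormone adiponectin, had 729 and 85 counts, Plin1, which coats lipid droplets, 714 and 97, and Lep, leptin, 237 and 17. The exceptions were Lpl and Cidea, which were over 2-fold higher in replicate 2. The summed level of the list was 1124 and 1111 TPM, most of it Car3 (702 and 835 TPM), which muscle fibres also make, and no marker was at 0 counts in both libraries.

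Of the other lists, 2 moved the same way by over 2-fold for most of their genes. For comparison, 3.09% of all genes whose mean count was 10 or more were over 2-fold lower in replicate 2, and 4.68% higher. All 6 red blood cell markers were over 2-fold lower in replicate 2, with summed levels of 2445 and 425 TPM, and so were 8 of 9 Schwann cell and myelin markers, at 128 and 39.2 TPM. The 10 slow-fibre genes were all over 2-fold higher in replicate 2, at 26.0 and 3024 TPM. None of 10 fast-fibre genes, 6 fibroblast markers or 6 endothelial markers was over 2-fold apart. All 10 fast-fibre genes were lower in replicate 2, though, with a median log2 ratio of -0.51. The endothelial markers leaned the other way from Dlk1, with a median log2 ratio of 0.34 and all 6 above 0. Of 14 satellite cell and developing muscle genes, 2 were over 2-fold lower: Mymk, the fusion protein myomaker (109 and 33 counts), and Actc1, cardiac actin (52502 and 20245). The part of these cells and fibres in the Dlk1 difference was not tested. No marker of 7 for brain and neurons, or of 5 for pituitary and placenta, tissues where the domain is strongly used, was detected in both libraries.

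Imprinted genes outside the domain gave a mixed picture. Of 45 listed, 28 were detected in both libraries, against 19.5% of all gene rows, and 36 had a mean count of at least 10. Among those 36, 5 were over 2-fold lower in replicate 2 and none higher, against 3.09% and 4.68% of all genes at that count. The median log2 ratio of the 36 was -0.16. Nnat, neuronatin, lay furthest apart, with 379 counts in replicate 1 and 10 in replicate 2 (39.6-fold, 21.3 to 83.2). The growth genes Igf2 (5100 and 2558 counts; 2.08-fold, 1.98 to 2.18) and Cdkn1c (1671 and 799; 2.18-fold, 2.01 to 2.38) also differed, as did Gatm (507 and 160) and Ddc (33 and 9). H19, the maternal RNA next to Igf2, was at 895.6 and 905.7 TPM, and Gnas at 554 and 552 TPM. The Dlk1 fold of 2.85 lay between those of Cdkn1c and Gatm (3.31), and Meg3, Rian and Mirg were within 2-fold, as were the other imprinted genes.

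**Figure D4:**
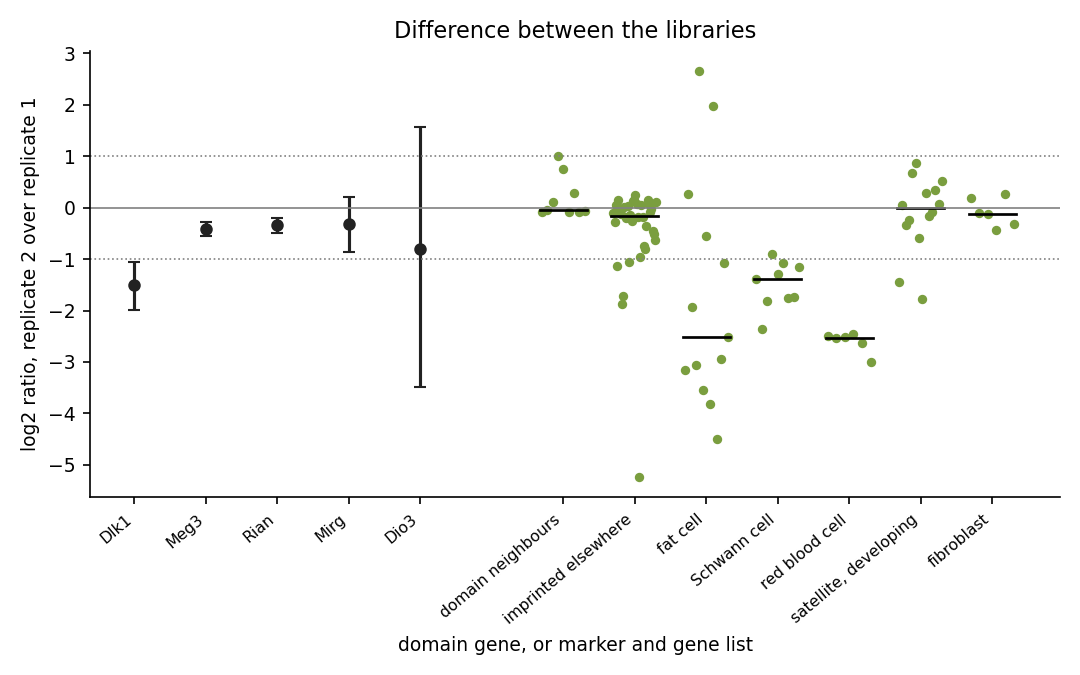
Log2 ratio of replicate 2 over replicate 1 for 5 domain genes (black, with 95% exact counting intervals) and for the members of 7 lists with a mean count of 10 or more (green, with the median as a bar). Dotted lines mark 2-fold. Dlk1 lies at -1.50, Meg3, Rian and Mirg between -0.42 and -0.32, and the fat cell list has its median at -2.52. Dio3, with 5 and 3 counts, has an interval that spans 0, and Rtl1 is not drawn.

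The long RNAs differed little between the libraries. The log2 ratios were -0.42 for Meg3, -0.34 for Rian and -0.32 for Mirg after TMM scaling. Of all genes at a mean count of at least 10, 11.4% had a ratio as low as that of Meg3. Scaling to the spike-in total instead raised the median of all genes to 0.39 and gave -0.03 for Meg3, 0.04 for Rian and 0.06 for Mirg. Relative to the median of all genes the values were -0.42, -0.35 and -0.32 under TMM and -0.42, -0.34 and -0.32 with spike-ins. A change of scaling shifts all genes nearly alike, so this match was fixed in advance and adds no support. Against the median gene all 3 RNAs lay lower in replicate 2, but for Mirg the counting interval spanned no change. Dlk1 kept its direction, at -1.12 with spike-ins.

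Most genes next to the domain were near level between the libraries. Of the 12 neighbours and antisense rows, 9 were detected in both libraries, and none of the 9 with a mean count of at least 10 was over 2-fold apart by the log2 ratio, which includes the prior count. Slc25a29, a mitochondrial carrier gene, lay at that limit and was higher in replicate 2, with 99 and 207 counts (log2 ratio 1.00; ratio of scaled counts 2.00, 95% exact counting interval 1.57 to 2.57). Slc25a47, another carrier gene, was also higher in replicate 2, with 36 and 64 counts (ratio 1.70, 1.12 to 2.64). Both were named after their values were seen. Yy1, a transcription factor encoded on the Dlk1 side, stood at 11.6 and 11.2 TPM, and Dync1h1, dynein heavy chain, on the Dio3 side, at 26.7 and 23.7 TPM. Ppp2r5c, a phosphatase subunit, stood at 24.8 and 27.0 TPM.

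Dlk1 protein is known to act on Notch signalling, and the receptors and enzymes of that pathway were present. Of 21 Notch pathway genes, 17 were detected in both libraries, and none of the 19 with a mean count of at least 10 was over 2-fold apart (median log2 ratio 0.08). Of those 19, 12 were higher in replicate 2 and 7 were lower. The target genes Hes1, Hey1, Hey2 and Heyl were among the higher, at ratios of 1.71, 1.49, 1.56 and 1.51. For Hey2 the counting interval spanned no change. These genes were named after their values were seen. Among the more abundant genes of the list, Jag2, a ligand, stood at 10.1 and 7.68 TPM. Rbpj, the nuclear effector, was at 7.87 and 9.32 TPM.

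Dio3 (ENSMUSG00000075707.5, chr12:110279068-110281097, plus strand) had 5 counts in replicate 1 (95% exact Poisson interval 1.62 to 11.7) and 3 in replicate 2 (0.619 to 8.77). A difference was not detectable at this depth. Dio2, the deiodinase that activates thyroid hormone, had 34 counts against 101, which was 2.85-fold higher in replicate 2 (1.91 to 4.33), and was the 1 gene over 2-fold apart among 13 of the thyroid list with a mean count of at least 10. It too was low, at 0.19 and 0.55 TPM. Of the 16 thyroid hormone genes, 11 were detected, led by the corepressor Ncor1 at 47.7 and 46.7 TPM, Rxra at 43.0 and 37.5 TPM and the receptor Thra at 32.2 and 29.7 TPM.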

How the data were processed

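The members and gene lists were chosen with earlier results of these data known. Each library has 3 tables from the authors: genes, alignment-based transcripts and reads-based transcripts. Expected counts, and the estimated counts of the reads-based tables, were used as deposited, unnormalised and not always whole. TPM values are the deposited ones, scaled to a fixed total with spike-ins included. The percentage of a gene's TPM held by each transcript is deposited in the alignment-based tables, and for reads-based tables and counts it was computed here. The posterior SD, used as a score of read assignment, is named per the file headers. The deposited descriptions give mm10 and GENCODE M21. Which quantification programs were used, and whether counting used strand, is not given in the sources used here.

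Counts were rounded and scaled by TMM in edgeR 4.0.16 (R 4.3.3), with DESeq2 1.42.0 size factors as an alternative. Log2 ratios are replicate 2 over replicate 1 with a prior count of 0.5, and folds are ratios of scaled counts; over 2-fold apart is judged on the log2 ratio. edgeR gave a common coefficient of variation of 0.220 over 14263 genes. Intervals (Clopper-Pearson for ratios, exact Poisson for counts) and the limit of 3 counts reflect counting error alone, since sequenced reads are not independent. Scaling and spread were tested on simulated data. Named genes are all members, their transcripts at 5% or more of the gene in any table, and per list up to 4 of the highest by mean TPM and those over 2-fold apart. Not every gene that this rule names is reported here. The miRNAs shown, and Gm26945, Gm37899, Gm34667, B830012L14Rik and Dio3os, were chosen by position or after their values were seen. Sequences are from RefSeq (GRCm38.p6), with 6 start windows for 5 members and none held for Rtl1.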

Additional observations from a re-analysis of the deposited data

How the results depend on the processing

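Of 142 values recomputed under other settings, 114 were classed as the same. That class meant within the SD for levels, ratios and shares, and within the counting interval for log2 ratios. For numbers and percentages of genes it meant equal or within a fixed factor. With 2 libraries, leaving 1 out always gives a value within the SD unless both are equal, so such values could not move. TPM without spike-ins, mitochondrial genes and 7SL copies gave 35.9 for Meg3, 33.1 for Rian, 4.41 for Dlk1 and 2.83 for Mirg, with the same order, because those rows hold nearly as much TPM as all others. The reads-based table gave 25.8 for Meg3 and 28.9 for Rian, which reversed the pair (a ratio of 0.896 against 1.09); the cause was not tested. Counts per kb of merged exons, an alternative chosen after seeing the data, gave 1.18 for that ratio and 2.12 for Dlk1 over Mirg. With spike-in scaling the log2 ratio was -0.032 for Meg3 and 0.044 for Rian. With no filter on low counts 2 members were over 2-fold apart, the added one being Rtl1 on 1 count, against 28.2% of all genes at that setting, and at 2 TPM 2 members were detected. Meg3-209 held 3.95% of TPM in the reads-based table and 38.3% of counts, and Rian forms beginning beyond the midpoint 86.7% of counts.

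Leaving out either library gave 1.41 to 3.34 TPM for Dlk1, 17.06 to 21.39 for Meg3, 16.07 to 19.29 for Rian and 1.25 to 1.78 for Mirg. It gave ratios of 1.06 to 1.11 for Meg3 over Rian and 1.13 to 1.88 for Dlk1 over Mirg. The shares ran from 4.09% to 4.10% for Meg3-209, from 70.8% to 75.9% for Rian beyond the midpoint and from 38.9% to 59.8% of TPM for full-length Dlk1. No paired analysis was possible because the series holds 1 group. Depth limits Dio3, Rtl1 and the transcripts of Mirg, and the difference between libraries could not be recomputed with a library left out.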

Other observations

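Most listed factors that act on the domain, or on the RNAs made from it, were detected in both libraries. All 13 genes of miRNA and small nucleolar RNA processing were detected in both libraries and none was over 2-fold apart. They were led by Ago2, the slicing Argonaute, at 28.0 and 27.4 TPM, Snu13 and Nop56, proteins of box C/D particles, and Dicer1 at 13.8 and 11.7 TPM. Of 18 genes of Polycomb and imprint maintenance, 14 were detected. Trim28, which holds methylation at imprinted control regions with zinc finger proteins, stood at 29.8 and 24.8 TPM, and the zinc finger gene Zfp445 at 13.4 and 13.7 TPM. Zfp57, another zinc finger gene of the list, was low at 0.30 and 0.09 TPM. It was named after its values were seen. Uhrf1, which carries methylation through cell division, was the 1 gene of that list over 2-fold apart, with 15 counts in replicate 1 and 87 in replicate 2 (ratio 5.56, 95% exact counting interval 3.19 to 10.4).

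Mef2 factors, muscle transcription factors, and the deacetylases that bind them were near level between the libraries. Of 8 such genes 7 were detected and none was over 2-fold apart. Mef2c stood at 152 and 139.9 TPM, Mef2d at 65.3 and 68.1 TPM and Mef2a at 32.5 and 29.0 TPM. None of the 6 RefSeq start windows of the domain genes held a match to the MEF2 consensus, which 3.19% of all windows hold.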
